A study of Homo sapiens with 22 samples.

Results

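The p53 target genes described here are 31 genes, chosen by symbol as genes known to be switched on by p53, and all 31 were found among the 25343 gene symbols measured. The transcription factor p53 is kept low by the ubiquitin ligase MDM2 and accumulates after DNA damage and other stresses. It then activates genes that halt the cell cycle, start apoptosis, repair DNA, change metabolism and, through MDM2 itself, close a feedback loop. Through the cyclin-dependent kinase inhibitor CDKN1A (p21) it also leads to repression of cell cycle genes by the DREAM complex. Several members, among them GADD45A, PMAIP1, BBC3, SESN2 and GDF15, are also known to respond to stress signals that do not need p53, such as those of the factor ATF4.

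The data are RNA-seq libraries of polyadenylated RNA, 22 in all, from human renal cancer cells in 7 groups. The unmodified lines were OS-LM1, a metastatic line of another origin (2 libraries), 786-M1A, a metastatic derivative of 786-O (2), and 786-O itself, from a clear cell renal carcinoma (2). These relations are known from earlier work, and each line is described by the labels as a renal cancer line. For the remaining 16 libraries, 786-M1A cells carried a CRISPR interference (CRISPRi) system, that is, a cleavage-dead Cas9 that brings a repressor to the place its guide RNA matches. Their guide was iMAE-1.1 (4 libraries), iMAE-1.2 (4), iMAE-126 (2) or the non-targeting control SC (6). MAE stands for metastasis-associated enhancer, and the labels do not say which element each iMAE guide targets. Culture was in RPMI medium with 10% serum for every group. The labels name no DNA-damaging treatment. Each group is 1 cell line or 1 guide in 1 line, and the sources used here do not say whether libraries of a group were separate cultures, so p-values measure the spread between libraries.

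The libraries held from 9062605 to 52706490 expected counts. PAX8, the transcription factor that marks kidney epithelium, lay between 87.1 and 262 TPM in the 22 libraries (TPM is RSEM's length-scaled abundance), while no marker of blood, endothelial or liver cells exceeded 1.43 TPM. Library composition split the CRISPRi libraries in 2 sets without a name in the labels. Set A, which is SC replicates 1 and 2 with iMAE-126 replicates 1 and 2, had a count-weighted mean gene length of 3528 to 3716 bases. Set B, the other 12, had 3264 to 3395 bases. Each guide was therefore tested in a fit that includes a term for the set, so iMAE-126 is in effect compared with SC replicates 1 and 2, and iMAE-1.1 and iMAE-1.2 with SC replicates 3 to 6. A gene is called when the edgeR quasi-likelihood test gives a Benjamini-Hochberg adjusted p under 0.05 over all genes tested. Levels are in CPM, counts scaled to library size with TMM factors, and TPM is used where genes are compared with each other.

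Per unit of length, the members spanned a wide range of levels. In OS-LM1, 26 of 31 members had a mean of at least 10 TPM, and 9 had at least 100 TPM. In 786-M1A these numbers were 24 and 7, and in 786-O 27 and 5. The most abundant member was BAX in OS-LM1 at a mean of 636 TPM, the polo-like kinase PLK2 in 786-M1A at 342 TPM and CDKN1A in 786-O at 275 TPM. In SC it was the stress protein GADD45A, at 294 TPM. That mean pools library sets in which GADD45A differed, with means of 81.8 CPM in SC of set A and 287 CPM in SC of set B. The decoy death receptor TNFRSF10C had a mean under 1 TPM in every group and gave no call in any comparison. SPATA18, a protein of mitochondrial quality control, had one under 1 TPM in every group except OS-LM1 and 786-O. Both genes fell under the count filter of the CRISPRi fits and of SC against 786-M1A, which tested 29 of 31 members.

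**Figure D1:**
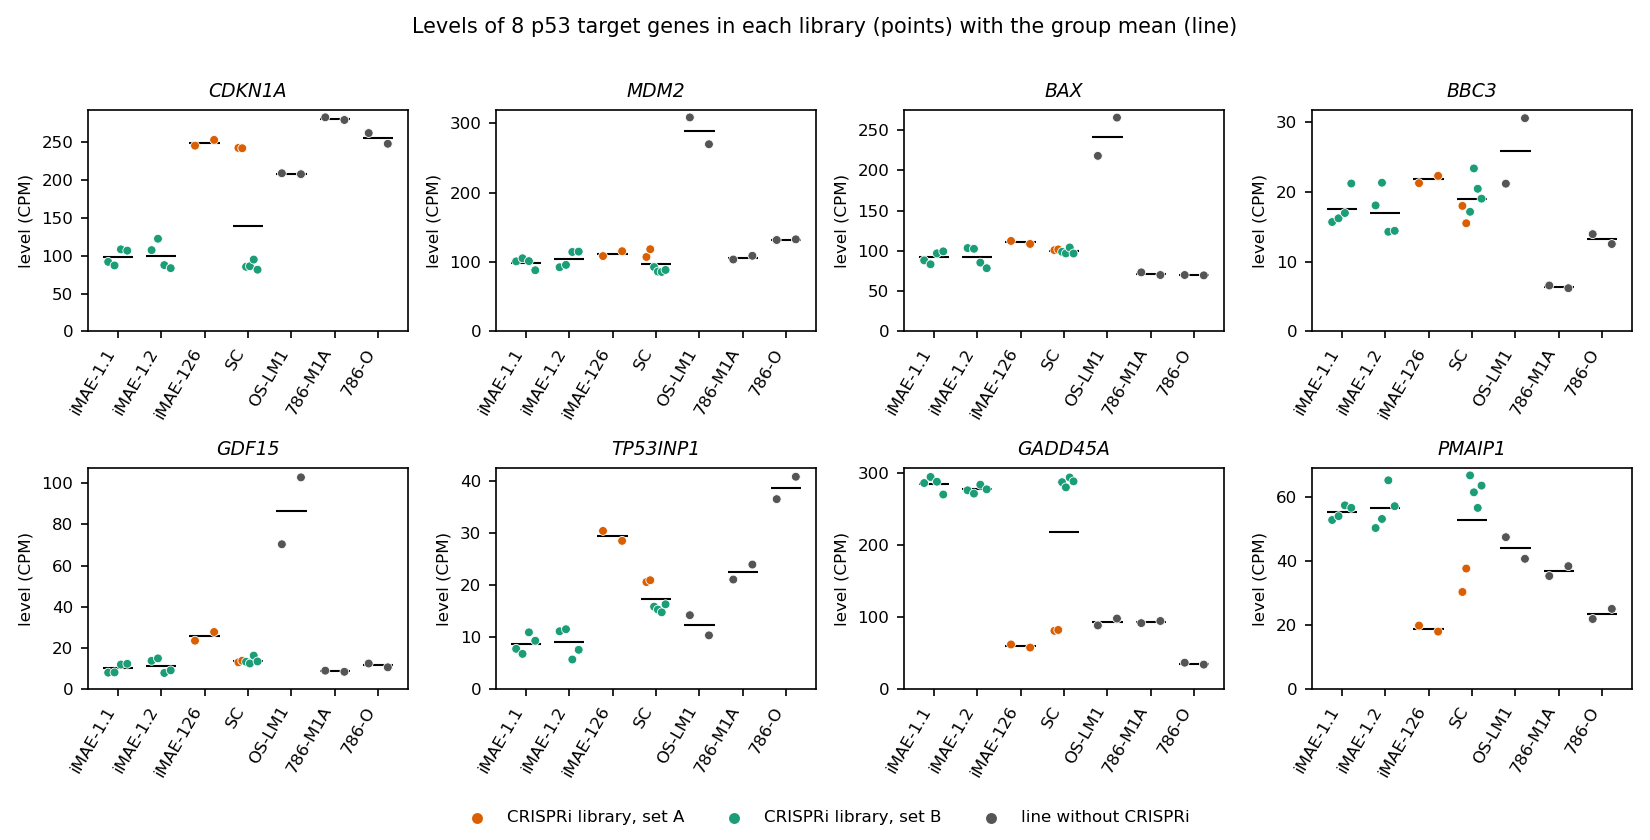
Levels (CPM, linear axis from 0) of 8 p53 target genes in each of the 22 libraries, by group. Points are libraries, coloured by library set for the CRISPRi groups, and lines are group means. MDM2, BAX and GDF15 stand highest in OS-LM1, TP53INP1 is lowest with iMAE-1.1, with iMAE-1.2 and in 1 OS-LM1 library, and CDKN1A, GADD45A and PMAIP1 split by library set within SC.

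The p53 target genes called between OS-LM1 and 786-M1A were mainly higher in OS-LM1. Of 31 members, 17 were higher and 5 lower in OS-LM1, against a background in which 34.4% of all 16354 genes tested were called higher and 34.3% lower. Called in either direction were 22 of 31 members and 11232 of 16354 genes, which are near the same share. The median log2 fold change was 0.49 over the members and 0.04 over all genes tested. Against 786-O, 19 members were higher and 7 lower, where 30.4% of all genes were called higher and 33.3% lower, and the medians were 0.71 over the members and −0.01 over all genes. Both comparisons use the same OS-LM1 libraries. In both, 15 members were higher and 4 lower. The count-weighted mean gene length was 3617 and 3391 bases in OS-LM1, 3929 and 3982 bases in 786-M1A and 3909 and 3915 bases in 786-O, and its part in these differences was not tested.

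Among the members that act in apoptosis, BAX, the pore-forming protein of the mitochondrial outer membrane, was at 218 and 265 CPM in OS-LM1, against 73.3 and 70.0 CPM in 786-M1A cells and 70.1 and 69.6 CPM in 786-O. Its OS-LM1 libraries stood far above those of both other lines, which overlapped each other. The log2 fold change was 1.67 ± 0.12 (SE) over 786-M1A (adjusted p = 8.46e-06) and 1.70 ± 0.12 over 786-O (adjusted p = 9.64e-06). BBC3 (PUMA), which frees BAX from its inhibitors, was at 21.1 and 30.5 CPM in OS-LM1, against 6.58 and 6.19 CPM in 786-M1A cells and 13.9 and 12.5 CPM in 786-O. The 3 lines did not overlap, although the OS-LM1 libraries lay wide apart. OS-LM1 was higher than 786-M1A by 1.92 ± 0.18 on the log2 scale (adjusted p = 3.51e-05) and higher than 786-O by 0.87 ± 0.17 (adjusted p = 0.00229).

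The death receptors moved with line as well. TNFRSF10B, the receptor DR5 of the ligand TRAIL, was at 294 and 269 CPM in OS-LM1, against 141 and 143 CPM in 786-M1A cells and 147 and 146 CPM in 786-O. OS-LM1 again stood apart from the other lines, by a log2 fold change of 0.90 over 786-M1A (adjusted p = 0.000123). FAS, the receptor of FAS ligand, was at 73.6 and 59.1 CPM in OS-LM1, 59.9 and 63.1 CPM in 786-M1A cells and 32.1 and 31.7 CPM in 786-O. Its OS-LM1 and 786-M1A libraries overlapped (log2 fold change 0.03, not called), and both lines lay above 786-O. AEN, an apoptosis-enhancing nuclease, and APAF1, the scaffold of the apoptosome, were higher in OS-LM1 than in 786-M1A by 0.84 and 0.38 on the log2 scale.

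MDM2 was at 309 and 270 CPM in OS-LM1, against 104 and 109 CPM in 786-M1A cells and 132 and 133 CPM in 786-O. Its OS-LM1 libraries were more than any other library of the series held. The log2 fold change was 1.36 ± 0.11 over 786-M1A (adjusted p = 2.17e-05) and 1.05 ± 0.11 over 786-O (adjusted p = 0.000106). CDKN1A went the other way, at 209 and 208 CPM in OS-LM1, 283 and 280 CPM in 786-M1A cells and 262 and 248 CPM in 786-O. OS-LM1 was lowest of the 3 lines without overlap, by −0.52 ± 0.10 against 786-M1A (adjusted p = 0.00197) and −0.38 ± 0.10 against 786-O (adjusted p = 0.0106). The call against 786-O was lost without 786-O replicate 1 (adjusted p = 0.111) or replicate 2 (adjusted p = 0.0549). BTG2, an antiproliferative partner of the CCR4-NOT deadenylase, was at 22.3 and 20.8 CPM in OS-LM1, 8.59 and 9.27 CPM in 786-M1A cells and 17.0 and 15.5 CPM in 786-O. OS-LM1 was highest of the 3, by 1.19 ± 0.12 over 786-M1A (adjusted p = 5.98e-05) and 0.33 ± 0.12 over 786-O (adjusted p = 0.0391). The smaller difference was lost without 786-O replicate 1 (adjusted p = 0.0985), 786-O replicate 2 (0.255) or OS-LM1 replicate 1 (0.113).

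Members of other roles were also higher in OS-LM1. GDF15, a secreted stress cytokine, was at 70.3 and 103 CPM in OS-LM1, against 9.07 and 8.52 CPM in 786-M1A cells and 12.5 and 10.7 CPM in 786-O. The OS-LM1 libraries held several times the level of any other library, by 3.21 ± 0.18 on the log2 scale over 786-M1A (adjusted p = 2.98e-06) and 2.81 ± 0.18 over 786-O (adjusted p = 6.96e-06). SPATA18 was at 16.9 and 15.5 CPM in OS-LM1, 0.901 and 0.542 CPM in 786-M1A cells and 3.17 and 2.78 CPM in 786-O. The order of the lines held in every library, with a log2 fold change of 4.39 ± 0.25 over 786-M1A (adjusted p = 2.55e-06) and 2.36 ± 0.21 over 786-O (adjusted p = 3.90e-05). TP53I3, a quinone oxidoreductase, was at 19.8 and 23.4 CPM in OS-LM1, 5.51 and 5.22 CPM in 786-M1A cells and 5.25 and 5.03 CPM in 786-O. The last 2 lines overlapped, and OS-LM1 was higher by 1.92 ± 0.14 than 786-M1A (adjusted p = 9.58e-06) and by 1.98 ± 0.14 than 786-O (adjusted p = 1.09e-05). RPS27L, a ribosomal protein paralogue that binds MDM2, was at 281 and 321 CPM in OS-LM1, 101 and 106 CPM in 786-M1A cells and 119 and 125 CPM in 786-O. It was highest in OS-LM1 and lowest in 786-M1A, with a log2 fold change of 1.46 ± 0.11 between them (adjusted p = 1.07e-05). RPS27L is a close relative of RPS27, and reads shared between them could be split by the counting.

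DNA repair members split in direction. RRM2B, the p53-inducible subunit of ribonucleotide reductase, was at 43.7 and 27.3 CPM in OS-LM1, 249 and 271 CPM in 786-M1A cells and 137 and 142 CPM in 786-O. OS-LM1 was lowest and 786-M1A highest, with log2 fold changes of −2.94 ± 0.21 against 786-M1A (adjusted p = 9.74e-06) and −2.04 ± 0.21 against 786-O (adjusted p = 7.20e-05). ZMAT3, an RNA-binding protein that regulates splicing, was at 40.2 and 25.8 CPM in OS-LM1, 82.4 and 89.2 CPM in 786-M1A cells and 78.9 and 84.5 CPM in 786-O. It was lower in OS-LM1 than in either line, by −1.45 ± 0.19 against 786-M1A (adjusted p = 0.000257) and −1.38 ± 0.19 against 786-O (adjusted p = 0.000408). In contrast DDB2, which finds ultraviolet lesions in DNA, was higher in OS-LM1 by 0.87 over 786-M1A and 0.67 over 786-O on the log2 scale. The damage sensor XPC was called lower only against 786-O (−0.33), and the translesion polymerase POLH only against 786-M1A (−0.37). TP53INP1, a stress protein of autophagy and cell death, was at 14.3 and 10.4 CPM in OS-LM1, 21.1 and 23.98 CPM in 786-M1A cells and 36.5 and 40.8 CPM in 786-O. The 3 lines did not overlap, and OS-LM1 was lower by −0.94 ± 0.16 than 786-M1A (adjusted p = 0.00119) and by −1.72 ± 0.16 than 786-O (adjusted p = 5.59e-05).

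Of the remaining members, PHLDA3 (an inhibitor of AKT), FDXR (a mitochondrial reductase), TRIAP1 (a mitochondrial lipid transfer factor) and PLK2 were higher in OS-LM1 in both comparisons, with log2 fold changes between 0.48 and 0.89. SESN1 was higher only against 786-M1A (0.49), and its relative SESN2, which restrains mTORC1 as it does, was lower only against 786-O (−0.81). GADD45A, PLK3 and PMAIP1 were higher than in 786-O by 1.30, 1.33 and 0.83 and were not called against 786-M1A. Cyclin G1 (CCNG1) was lower than in 786-O by −0.54, and the phosphatase PPM1D, which dampens p53 signalling, was called in neither comparison. Against 786-M1A, the calls of POLH, PLK2 and APAF1 were lost without either 786-M1A library (adjusted p = 0.0550 to 0.124), that of SESN1 without its replicate 1 (0.0573) and that of PHLDA3 without its replicate 2 (0.0939). Against 786-O, that of XPC was lost without either 786-O library (0.0685 and 0.140) and that of CCNG1 without its replicate 2 (0.0550).

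**Figure D2:**
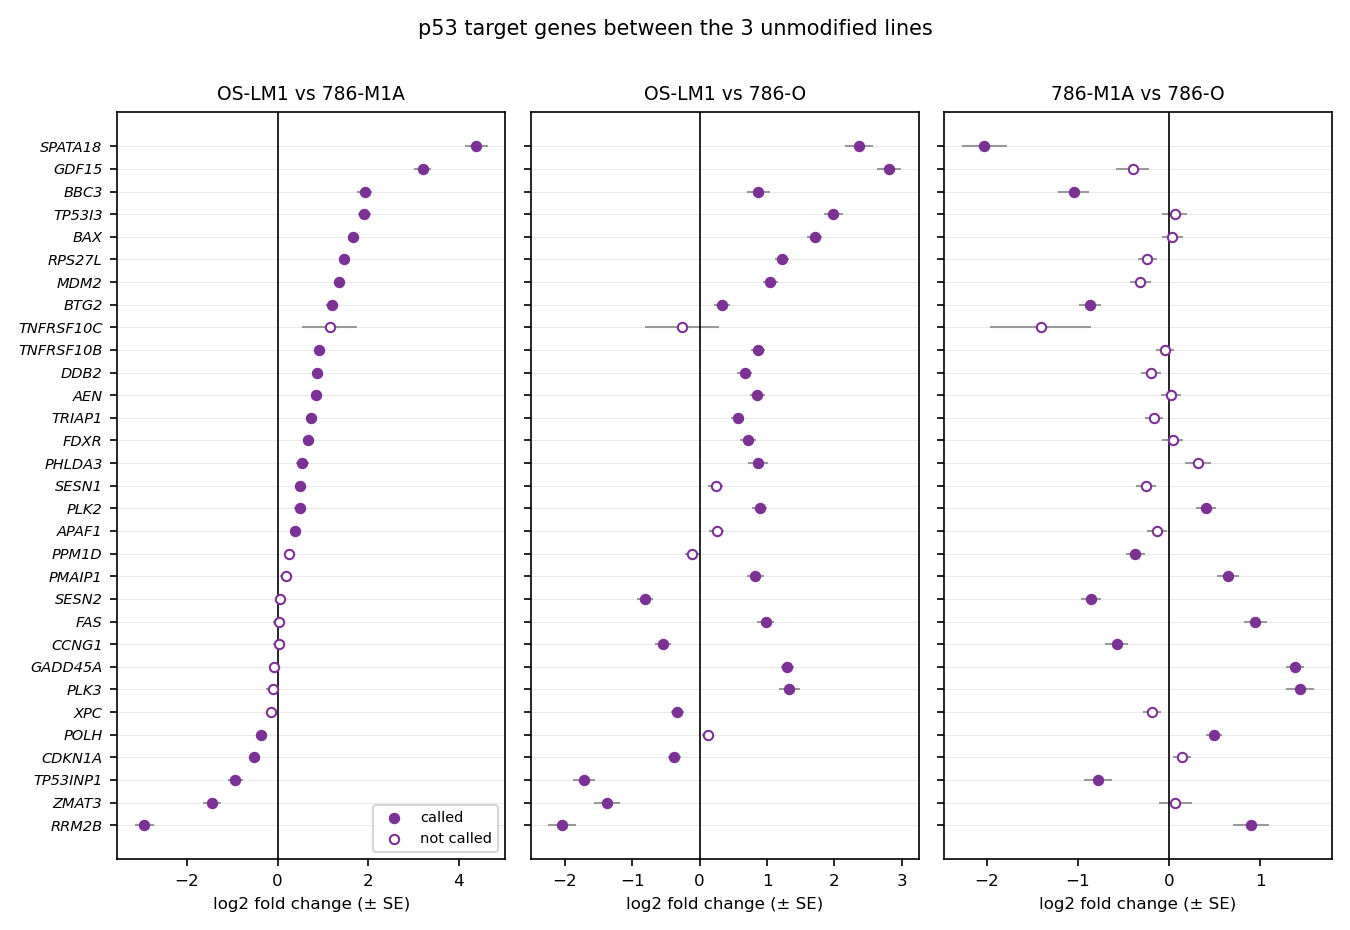
Log2 fold changes (± SE, n = 2 libraries a line) of the 31 p53 target genes between the unmodified lines, ordered by OS-LM1 over 786-M1A. Filled points passed the edgeR test at an adjusted p under 0.05. SPATA18 (4.39) and RRM2B (−2.94) mark the ends of the first panel, and the order is not kept in the panel of 786-M1A over 786-O.

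Promoter sequence was read for the members with an entry in the RefSeq promoter table (GRCh38.p14, 250 bases before to 50 after each start). Of 31 members, 25 had one. The consensus p53 response element, with its decamers adjoining and at most 2 mismatches in 20 bases, was sought on both strands. It was found in 4 members (16%), against 0.806% of 27280 other genes and 0.649% of all 35116 windows. The members were chosen as known p53 targets, so a larger share among them follows from that choice and is no result of these data. The matches are shown because 3 of these genes, AEN, DDB2 and MDM2, were higher in OS-LM1 in both comparisons, and the fourth, FAS, against 786-O alone. Among all 31 members, 15 were higher in both, most of them without a match, and no link of match and level was tested. Each is written on the plus strand, which is the strand of the gene, with the 20 bases of the match in capitals and 5 flanking bases on each side.
AEN: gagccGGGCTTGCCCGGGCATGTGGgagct
DDB2: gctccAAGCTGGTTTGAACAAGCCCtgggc
FAS: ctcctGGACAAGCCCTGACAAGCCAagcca
MDM2: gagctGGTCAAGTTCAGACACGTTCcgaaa
The printed stretches lie at chr15:88621301-88621330 (AEN), chr11:47214964-47214993 (DDB2), chr10:88991304-88991333 (FAS) and chr12:68808918-68808947 (MDM2). Relative to an annotated start of its gene, the match begins at base −34 in AEN, −5 in DDB2, −122 in FAS and −94 in MDM2. It has 1 mismatch in DDB2 and 2 in each of the others. A match is a description of these letters. The 25 members had 36 windows, since a gene can have several annotated starts. A match before a later start can therefore lie inside the gene, in an intron of a longer transcript. Sites outside the windows, in introns or farther away, were not read.

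The regulators of p53 also differed between lines. MDM4, the partner of MDM2 that blocks the p53 activation domain, was at 73.3 and 96.2 CPM in OS-LM1, 20.4 and 21.4 CPM in 786-M1A cells and 32.1 and 38.5 CPM in 786-O. The order of the lines held in every library, with 1.93 ± 0.15 in OS-LM1 over 786-M1A (adjusted p = 1.34e-05). TP73, a relative of p53 that binds the same elements, was at 0.279 and 0.500 CPM in OS-LM1, 6.24 and 5.49 CPM in 786-M1A cells and 4.27 and 4.09 CPM in 786-O, and was lower in OS-LM1 than in 786-M1A (log2 fold change −4.06, adjusted p = 9.81e-06). The other relative, TP63, had at most 6 counts in any library and was not tested. CDKN2A, whose product ARF inhibits MDM2, had 0 counts in all 22 libraries, which allows a level of up to 0.0569 CPM in the deepest library and 0.331 CPM in the shallowest (3 counts, counting error only). Lower in OS-LM1 than in 786-M1A were the kinases PRKDC (log2 fold change −2.65) and ATR (−1.35), which signal DNA damage. A further kinase of that signalling, ATM, was higher in OS-LM1, by 0.45 over 786-M1A (adjusted p = 0.00417) and 0.56 over 786-O (adjusted p = 0.00148). Some of these genes also differed between unmodified 786-M1A and the SC libraries, which are the same line with the CRISPRi control. MDM4 was higher in SC, at a mean of 66.0 CPM (log2 fold change 1.67, adjusted p = 0.00131). TP73 (−0.74), PRKDC (−1.004) and ATR (−1.04) were lower in SC, and ATM was not called.

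Cell cycle genes that p53 lowers through CDKN1A and DREAM were mostly lower in OS-LM1. Of all genes tested, 34.4% were higher and 34.3% lower than in 786-M1A, and 30.4% were higher and 33.3% lower than in 786-O. Of the 30 on the list, 3 were higher and 25 lower (83.3%) than in 786-M1A (median log2 fold change −0.81). Against 786-O, 2 on the list were higher and 21 lower (70%, median −0.62). The largest difference was in MYBL2, a transcription factor of proliferating cells, at 76.2 and 67.8 CPM in OS-LM1, 307 and 295 CPM in 786-M1A cells and 286 and 263 CPM in 786-O. The mitotic kinase PLK1 was lower by −1.73 and cyclin A2 (CCNA2) by −1.52 than in 786-M1A. Of 47 other direct p53 targets, 20 were higher (42.6%) and 12 lower (25.5%) in OS-LM1 than in 786-M1A, beside 34.4% and 34.3% of all genes, with a median of 0.12. SFN (14-3-3 sigma, a brake on entry into mitosis) was at 37.5 and 42.5 CPM in OS-LM1, against 1.13 and 1.33 CPM in 786-M1A, a log2 fold change of 4.93 ± 0.16 (adjusted p = 1.83e-07). LIF, a cytokine, was higher by 2.57 (adjusted p = 5.29e-07). TRIM32, a ubiquitin ligase, had 821 counts in OS-LM1 and 2 in 786-M1A, a ratio of levels of 1011 with an exact 95% counting interval of 279 to 8363. It was also near 0 in 786-O, with 3 counts, and in SC and the guide groups, with group means of at most 0.216 CPM. On the list of ATF4 and its targets outside the members, 7 of 12 were higher (58.3%) and 2 lower (16.7%) in OS-LM1 than in 786-M1A. Against 786-O, 6 were higher (50%) and 4 lower (33.3%), where 30.4% of all genes were higher and 33.3% lower. Against 786-M1A the pseudokinase TRIB3 was higher by 2.43 (adjusted p = 7.72e-07). The part of these signals in the levels of the shared members was not tested.

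**Figure D3:**
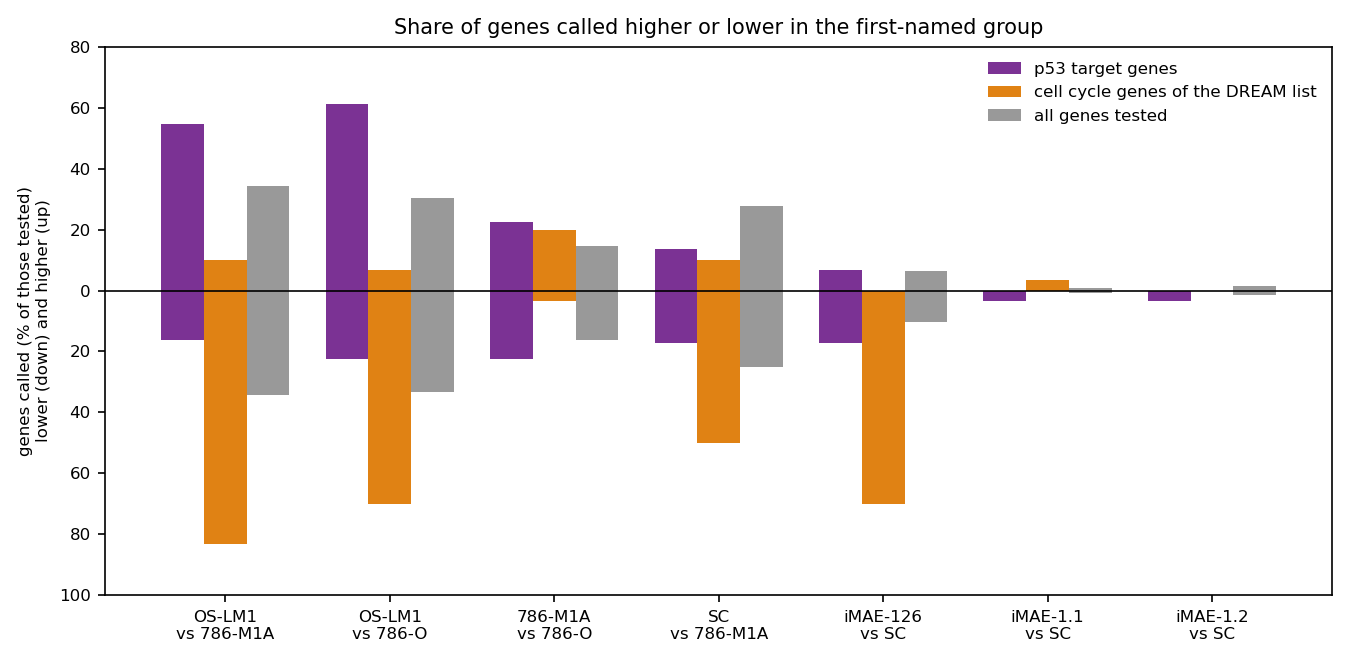
Share of genes called higher (up) or lower (down) in the first-named group of each comparison, as a percent of those tested, for the p53 target genes, the 30 cell cycle genes of the DREAM list and all genes tested. Against 786-M1A, OS-LM1 had 54.8% of the p53 target genes higher and 83.3% of the cell cycle genes lower, where all genes gave 34.4% and 34.3%.

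The metastatic derivative 786-M1A and its parent 786-O showed no common direction of the p53 target genes. Of 31 members, 7 were higher and 7 lower in 786-M1A, against 14.7% of all genes tested called higher and 16.3% lower. The median log2 fold change was −0.13 over the members and −0.02 over all genes. Members called higher were PLK3 (1.44), GADD45A (1.39), FAS (0.95), RRM2B (0.90), PMAIP1 (0.65), POLH (0.50) and PLK2 (0.41). Members called lower were SPATA18 (−2.03), BBC3 (−1.05), BTG2 (−0.87), SESN2 (−0.86), TP53INP1 (−0.78), CCNG1 (−0.57) and PPM1D (−0.37).

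PLK3, a stress-activated polo-like kinase, was at 12.5 and 10.9 CPM in 786-M1A cells and 4.50 and 4.11 CPM in 786-O, without overlap (log2 fold change 1.44 ± 0.16, adjusted p = 0.000311). GADD45A, which binds PCNA and stress kinases, was at 91.8 and 94.8 CPM in 786-M1A cells and 37.0 and 34.4 CPM in 786-O. The groups stood far apart against a small spread (1.39 ± 0.10, adjusted p = 3.84e-05). SPATA18 showed the reverse, as its levels above show (−2.03 ± 0.25, adjusted p = 0.000659), and so did BBC3 (−1.05 ± 0.17, adjusted p = 0.00271). CDKN1A (0.14 ± 0.10, adjusted p = 0.318), MDM2 (−0.31 ± 0.11, adjusted p = 0.0661) and BAX (0.04 ± 0.11, adjusted p = 0.832) were not called. MDM2 passed the test under 4 of the alternative settings tried, with log2 fold changes of −0.29 to −0.38. Without any 1 of the 4 libraries of these lines, 8 or 9 members were called. The calls of POLH (adjusted p = 0.0582 to 0.0824), CCNG1 (0.0619 to 0.109), PPM1D (0.144 to 0.212) and PLK2 (0.156 to 0.216) were lost in each of these 4 fits. The call of RRM2B was lost without 786-M1A replicate 2 (adjusted p = 0.0690), 786-O replicate 1 (0.0890) or 786-O replicate 2 (0.0786). That of TP53INP1 was lost without 786-M1A replicate 1 (0.0744) or 786-O replicate 2 (0.0706), and that of PMAIP1 without 786-M1A replicate 2 (0.0587) or 786-O replicate 1 (0.0786). Of the 30 cell cycle genes of the DREAM list, 6 were higher (20%) and 1 lower (3.33%) in 786-M1A. Of the 12 genes of the ATF4 list, 1 was higher (8.33%) and 9 lower (75%). Of all genes tested, 14.7% were higher and 16.3% lower.

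The SC libraries, which carry the CRISPRi control, differed among themselves by library set across all genes, and the share of p53 target genes that did so was near that of all genes. Of 29 members tested, 14 had higher levels in both SC libraries of set A than in any of the 4 of set B, 6 had lower levels and 9 overlapped, where the levels of 61.4% of all genes tested did not overlap. These are descriptions with no test, since the sets were found from the data. CDKN1A was at 243 and 242 CPM in SC replicates 1 and 2 and between 81.7 and 95.1 CPM in replicates 3 to 6. ZMAT3 was at 70.4 and 88.3 CPM in replicates 1 and 2 and between 28.0 and 35.7 CPM in the others, and RRM2B was at 131 and 141 CPM against 60.5 to 69.6 CPM. GADD45A ran the other way, at 81.2 and 82.4 CPM in replicates 1 and 2 and between 280 and 294 CPM in replicates 3 to 6, and PMAIP1 (NOXA), an inhibitor of MCL1, likewise at 30.4 and 37.8 CPM against 56.7 to 66.9 CPM. BAX, BBC3, FAS and GDF15 overlapped between the sets. ATF3 was at 8.30 and 8.60 CPM in replicates 1 and 2 and between 29.4 and 39.2 CPM in the others, and ATF4 at 379 and 378 CPM against 682 to 728 CPM. Their part in the difference of the members was not tested. The labels name no batch, so library set and any difference in culture cannot be told apart.

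Against unmodified 786-M1A, the pooled SC libraries had 4 members higher and 5 lower of 29 tested, where 27.8% of all 14769 genes tested were called higher and 25.3% lower. The count-weighted mean gene length was 3264 to 3716 bases in SC and 3929 and 3982 bases in 786-M1A, and its part in these differences was not tested. BBC3 was at 15.5 to 23.3 CPM in SC (median 18.5) and 6.58 and 6.19 CPM in 786-M1A. All 6 SC libraries lay above both of 786-M1A (log2 fold change 1.57 ± 0.17, adjusted p = 0.000850). RRM2B was at 60.5 to 141 CPM in SC (median 67.3) and 249 and 271 CPM in 786-M1A, again without overlap (−1.54 ± 0.33, adjusted p = 0.00644). RPS27L (0.69), GDF15 (0.66) and BAX (0.49) were also higher, and XPC (−0.75), FAS (−0.62), AEN (−0.43) and APAF1 (−0.41) lower. CDKN1A was at 81.7 to 243 CPM in SC (median 90.7) and 283 and 280 CPM in 786-M1A. SC lay below 786-M1A in all 6 libraries, but its 2 sets lay so far apart that the difference did not pass the test (−1.003 ± 0.462, adjusted p = 0.0933). MDM2 overlapped between the groups (−0.13 ± 0.14, adjusted p = 0.454). Of the 30 cell cycle genes of the DREAM list, 3 were higher (10%) and 15 lower (50%) in SC. Of the 12 genes of the ATF4 list, 10 were higher (83.3%) and 0 lower, with a median log2 fold change of 1.04. The part of these signals in the levels of the members was not tested. Leaving out SC replicate 1 or SC replicate 2 brought the members called to 14. There were 5 when 786-M1A replicate 1 was left out, and 3 when its replicate 2 was. The calls of RPS27L, XPC, AEN and APAF1 were lost without either 786-M1A library (adjusted p = 0.0508 to 0.103), and those of RRM2B (0.0588) and GDF15 (0.0658) without 786-M1A replicate 2. CDKN1A passed the test without SC replicate 1 (−1.26, adjusted p = 0.0321) or SC replicate 2 (−1.26, adjusted p = 0.0288).

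Within one set at a time more members were called. SC replicates 1 and 2 alone gave 6 of 31 members tested higher and 9 lower than 786-M1A, where 24.1% and 27.2% of all genes were called higher and lower. SC replicates 3 to 6 alone gave 7 of 29 higher and 14 lower, where 39.7% and 39.4% were. In both sets 4 members were higher (BBC3, RPS27L, GDF15 and BAX) and 7 lower, among them RRM2B (−0.92 in set A and −2.03 in set B) and CDKN1A (−0.20 in set A, adjusted p = 0.00886, and −1.72 in set B, adjusted p = 6.09e-22). GADD45A was called in opposite directions, at −0.18 in set A (adjusted p = 0.0480) and 1.59 in set B (adjusted p = 9.31e-21). The 2 comparisons share the 786-M1A libraries. The sets were found from the data, and set and any difference in culture cannot be told apart. By chi-square, SC replicates 4 and 6, and SC replicates 3 and 5, were nearer to each other than other SC pairs. If they are not separate cultures, the p-values of set B are too small.

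**Figure D4:**
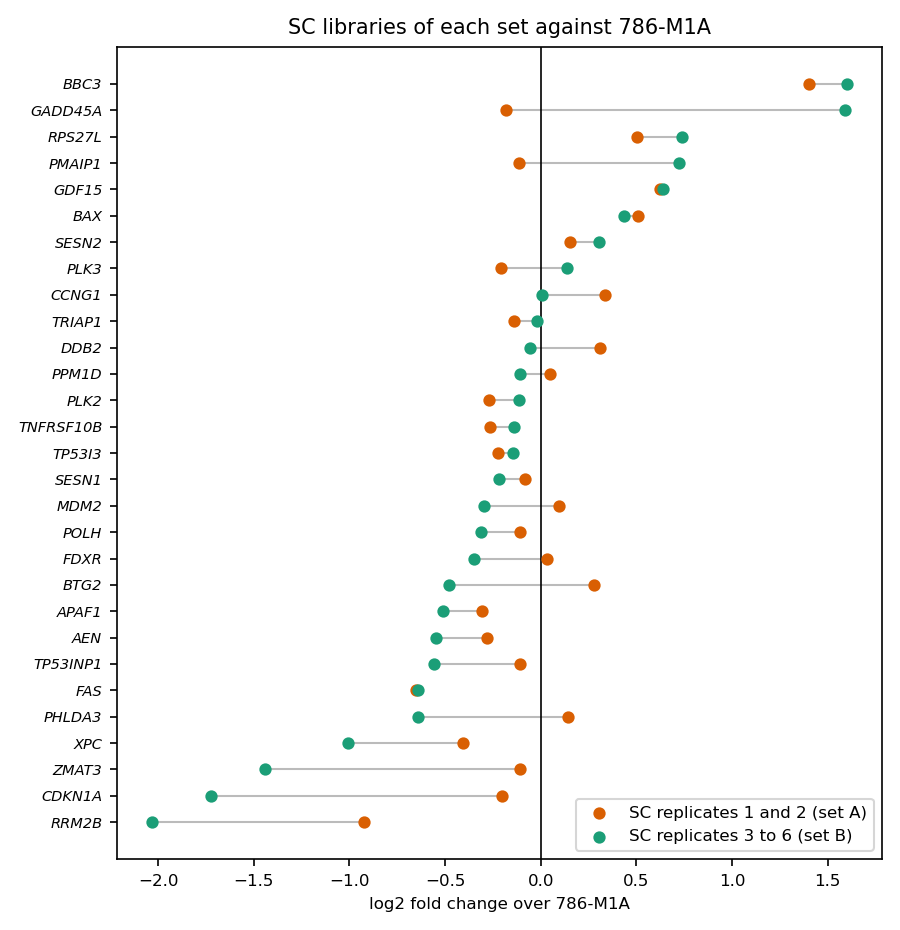
Log2 fold change over 786-M1A of the p53 target genes in SC replicates 1 and 2 (set A) and SC replicates 3 to 6 (set B), joined by a line for each gene. CDKN1A (−0.20 and −1.72) and ZMAT3 are far lower in set B, GADD45A (−0.18 and 1.59) lies on opposite sides of 0, and BBC3 lies above 0 in both.

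TP53INP1 was the 1 p53 target gene called against SC under iMAE-1.1, and the same held under iMAE-1.2. It was lower with both guides, where 0.878% of all 15254 genes tested were called lower with iMAE-1.1 and 1.34% with iMAE-1.2. Of the 29 members 0 were called higher with either guide, where 0.911% of all genes were with iMAE-1.1 and 1.39% with iMAE-1.2. Both comparisons share the SC libraries. TP53INP1 was at 7.80, 6.82, 10.96 and 9.35 CPM with iMAE-1.1 and 11.2, 11.6, 5.74 and 7.60 CPM with iMAE-1.2, against 15.9, 15.3, 14.8 and 16.3 CPM in SC replicates 3 to 6 of the same set. All 8 guide libraries lay below all 6 of SC. The log2 fold change was −0.84 ± 0.18 with iMAE-1.1 (adjusted p = 0.0189) and −0.80 ± 0.18 with iMAE-1.2 (adjusted p = 0.0210). With iMAE-1.1 the call was lost without SC replicate 3 (adjusted p = 0.0611), SC replicate 6 (0.0606), iMAE-1.1 replicate 1 (0.0591) or iMAE-1.1 replicate 2 (0.0624). With iMAE-1.2 it was lost without SC replicate 3 (0.0590), SC replicate 6 (0.0629) or iMAE-1.2 replicate 4 (0.0657). By chi-square, averaged over genes, SC replicates 4 and 6 (2.24) and SC replicates 3 and 5 (3.04) were nearer to each other than any other pair of SC libraries (5.79 or more). With each of these pairs summed to 1 library the call was lost with iMAE-1.1 (adjusted p = 0.170) and with iMAE-1.2 (0.162).

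CDKN1A was at 92.1, 87.3, 109 and 107 CPM with iMAE-1.1 and 108, 123, 87.7 and 83.7 CPM with iMAE-1.2, against 85.5, 86.3, 95.1 and 81.7 CPM in SC replicates 3 to 6. The groups overlapped, and it was not called with iMAE-1.1 (0.17 ± 0.11, adjusted p = 0.528) or iMAE-1.2 (0.20 ± 0.11, adjusted p = 0.382). MDM2 (0.15 ± 0.07 with iMAE-1.1, adjusted p = 0.391, and 0.24 ± 0.07 with iMAE-1.2, adjusted p = 0.0965), BBC3 (−0.19 and −0.22) and BAX (−0.12 and −0.10) were not called either. Of all genes tested, 0.911% were called higher with iMAE-1.1 and 1.39% with iMAE-1.2. Among other direct p53 targets 5 of 45 tested (11.1%) were higher and 0 lower with each guide. Among those called, the largest change was in the growth factor TGFA, at 184, 180, 187 and 171 CPM with iMAE-1.1 and 171, 209, 189 and 189 CPM with iMAE-1.2, against 127, 119, 115 and 125 CPM in SC replicates 3 to 6. The guide libraries lay above those of SC of the same set (0.56 ± 0.06 with iMAE-1.1, adjusted p = 5.62e-05, and 0.64 ± 0.06 with iMAE-1.2, adjusted p = 7.58e-06).

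When iMAE-1.2 was set against iMAE-1.1, edgeR called 0 of 29 members and 0 of all 15254 genes tested (0%). At an unadjusted p under 0.05 it had 0 members and 218 genes, and DESeq2 called 2 genes. Yet the libraries of each guide were not alike. Over all genes, iMAE-1.1 replicates 1 and 2 varied together with iMAE-1.2 replicates 3 and 4, and the other 4 varied together. The levels of 13 of 29 members did not overlap between these blocks, where those of 25.5% of all genes tested did not. TP53INP1 was at 5.74 to 7.80 CPM in the first block and 9.35 to 11.6 CPM in the other. GDF15 was at 7.96 to 9.22 CPM in the first block and 12.04 to 15.0 CPM in the other, and SESN2 at 27.3 to 31.9 CPM and 38.4 to 44.1 CPM. The blocks were found from the data and name no condition, so no test is given.

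With iMAE-126, 7 of 29 members were called against SC, 2 higher and 5 lower, where 6.31% of all genes tested were called higher and 10.4% lower. PMAIP1 was at 19.95 and 18.1 CPM with iMAE-126, against 30.4 and 37.8 CPM in SC replicates 1 and 2 of the same set. It was lower in both libraries than in any SC library (−0.85 ± 0.12, adjusted p = 0.000274). GADD45A was at 62.2 and 58.0 CPM with iMAE-126 and 81.2 and 82.4 CPM in SC replicates 1 and 2, again without overlap (−0.45 ± 0.07, adjusted p = 0.000577). GDF15 was at 23.6 and 27.8 CPM with iMAE-126, against 13.1 and 13.9 CPM in SC replicates 1 and 2, and lay above every SC library (0.93 ± 0.26, adjusted p = 0.0219). BTG2 was at 15.2 and 15.4 CPM with iMAE-126 and 10.5 and 10.98 CPM in SC replicates 1 and 2, likewise without overlap (0.50 ± 0.14, adjusted p = 0.0194).

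FAS was at 27.3 and 27.6 CPM with iMAE-126, against 36.5 and 41.5 CPM in SC replicates 1 and 2 (−0.51 ± 0.11, adjusted p = 0.00611). PLK2 was at 291 and 287 CPM with iMAE-126, against 382 and 357 CPM in the same SC libraries (−0.36 ± 0.11, adjusted p = 0.0269). RRM2B was at 104 and 112 CPM with iMAE-126, against 131 and 141 CPM (−0.34 ± 0.12, adjusted p = 0.0472). For these genes too the iMAE-126 libraries lay below both SC libraries of the set. With each library left out in turn, PMAIP1 and GADD45A kept their calls in every fit. The number of members called was 2 without iMAE-126 replicate 1, 3 without iMAE-126 replicate 2, 4 without SC replicate 1 and 2 without SC replicate 2. The calls of GDF15 (adjusted p = 0.0574 to 0.123), BTG2 (0.0830 to 0.0943) and PLK2 (0.0844 to 0.153) were lost without any 1 of the 4 libraries of set A. That of FAS was lost without SC replicate 2 (0.0825) or iMAE-126 replicate 1 (0.0536), and that of RRM2B without any 1 of the 8 libraries (0.0550 to 0.235).

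CDKN1A was at 246 and 253 CPM with iMAE-126 and 243 and 242 CPM in SC replicates 1 and 2, and was not called (0.03 ± 0.14, adjusted p = 0.905). MDM2 (−0.02 ± 0.10, adjusted p = 0.936), BAX (0.12 ± 0.12, adjusted p = 0.527), BBC3 (0.37 ± 0.18, adjusted p = 0.181) and TP53INP1 (0.49 ± 0.22, adjusted p = 0.141) were not called either. Of all genes tested, 10.4% were called lower and 6.31% higher. Of the 30 cell cycle genes of the DREAM list, 21 were lower (70%) and 0 higher (median −0.35). Those lower included PLK1 (−0.69, adjusted p = 0.0113) and CCNA2 (−0.63, adjusted p = 0.000244).

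**Figure D5:**
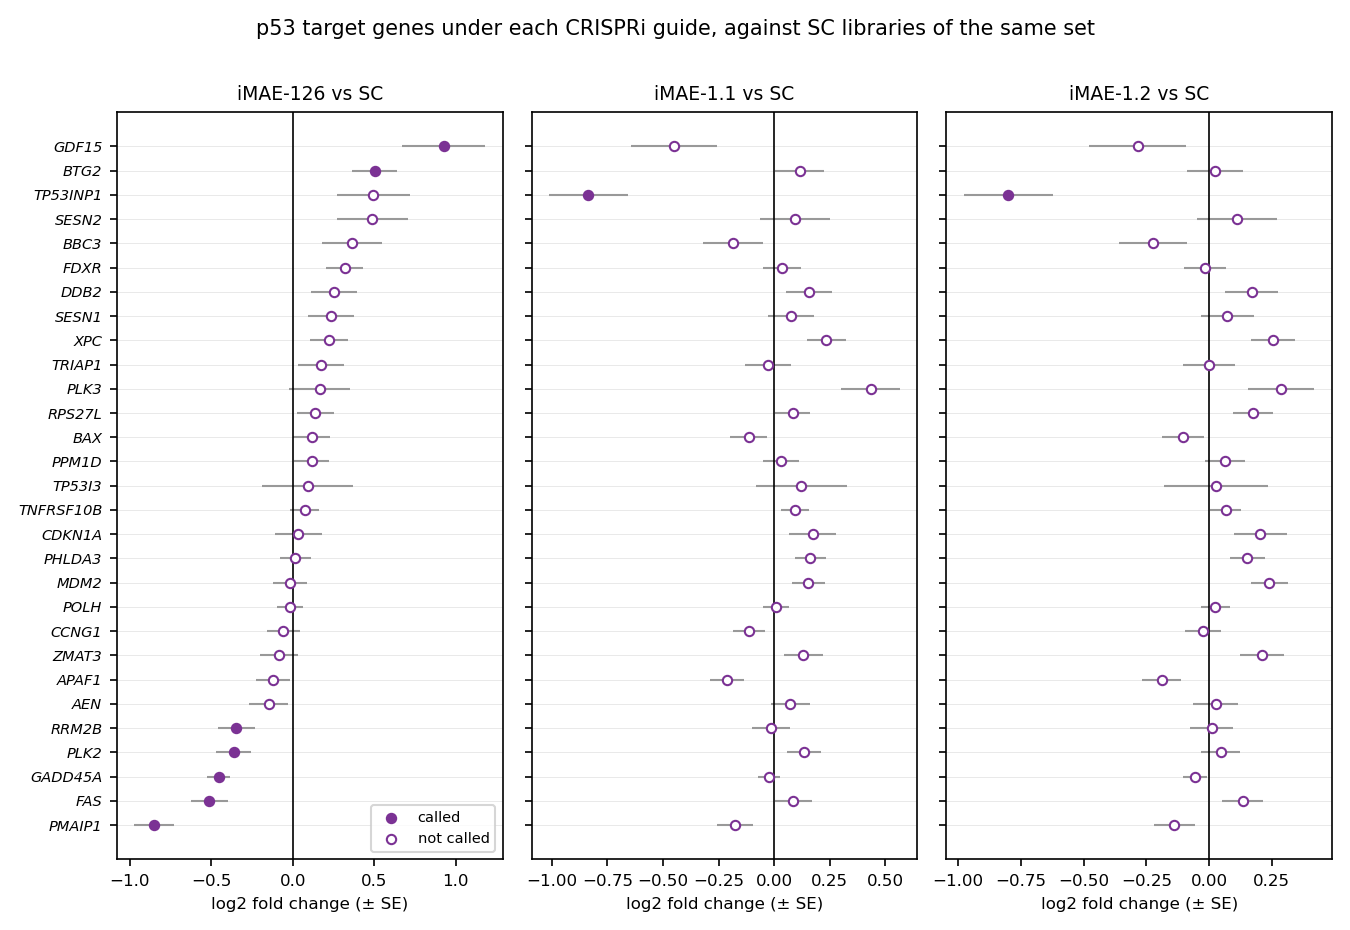
Log2 fold changes (± SE) of the 29 p53 target genes tested under iMAE-126 (n = 2), iMAE-1.1 and iMAE-1.2 (n = 4 each) against SC (n = 6), with a term for library set, ordered by iMAE-126. Through that term iMAE-126 is in effect compared with SC replicates 1 and 2, and the other guides with SC replicates 3 to 6. Filled points passed the edgeR test at an adjusted p under 0.05: 7 genes under iMAE-126, and TP53INP1 alone under iMAE-1.1 and iMAE-1.2.

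The difference between iMAE-126 and the average of the other 2 guides was tested in the same fit. It was called for 6 of 29 members, 2 higher and 4 lower, where 4.42% of all genes tested were called higher and 7.44% lower. TP53INP1 (1.31 ± 0.27, adjusted p = 0.00579) and GDF15 (1.29 ± 0.30, adjusted p = 0.0130) were higher with iMAE-126. PMAIP1 (−0.69 ± 0.14, adjusted p = 0.00421), FAS (−0.62 ± 0.13, adjusted p = 0.00656), PLK2 (−0.45 ± 0.13, adjusted p = 0.0259) and GADD45A (−0.41 ± 0.08, adjusted p = 0.00391) were lower. These guides lie in different library sets and are compared through the SC libraries of each set.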

How the data were processed

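Per the labels' protocols, poly(A) RNA was made into stranded libraries (second strand marked with dUTP) with 15 cycles of amplification. Bowtie2, RSEM and the build hg19 are named in the submitters' processing notes, and no version, setting or strand use is given in the sources used here. The expected count of each gene, per the file headers, is the RSEM estimate deposited by the authors and can be fractional. The TPM of each gene, per the file headers, was also deposited by the authors.

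For testing, expected counts were rounded to whole numbers. The test was edgeR (version 4.0.16, R 4.3.3) with TMM factors, robust quasi-likelihood fits, filterByExpr (minimum count 10) and Benjamini-Hochberg adjustment over all genes tested. The SE was taken from the fold change and its F statistic. There were 3 fits: one of the 16 CRISPRi libraries with a term for library set, one of the 6 unmodified libraries, and one of SC and 786-M1A. CPM use TMM factors over all 22 libraries. Library set was taken from the widest gap in count-weighted mean gene length. Genes named with full values are the members called in a guide comparison, up to 10 members a comparison called whose log2 fold change reached 1 in size, and CDKN1A, MDM2, BBC3 and BAX. Of other lists up to 4 called genes are named a comparison, with MDM4, CDKN2A, TP63 and TP73. One result is not reported here. ATF3 and ATF4 beside the SC sets, and ATM, were chosen after their values were seen. The members, the other gene lists, the tests and the alternatives were chosen with earlier results of these data known. As alternatives, DESeq2 (1.42.0), limma (3.58.1) on log2(TPM + 1), RLE factors, no filter on counts, a stricter minimum of 50, a replicate block, subsets of libraries and leaving out each library were tried. On simulated data with 200 changed genes, edgeR recovered 71.6% of 2-fold changes for iMAE-1.1, 83.6% for iMAE-1.2, 68.7% for iMAE-126, 64.2% for OS-LM1 against 786-M1A and 50.7% for SC against 786-M1A. Of 1.5-fold changes it recovered 67.2% for iMAE-1.1 and 20.9% for SC against 786-M1A. The simulated libraries had no difference between sets, and far fewer genes changed than were called between lines. The shares therefore check the procedure and do not give its power in these data. All files differ, and the mean chi-square per gene between replicates was 2.24 to 87.0, above counting noise. Tables and figures were made with Python 3.11.15, pandas 2.3.3, numpy 2.4.6 and matplotlib 3.10.9.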

Additional observations from a re-analysis of the deposited data

Results flagged for a closer look

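In SC, GDF15 was highest in replicate 5 at 16.4 CPM, which lies apart from the other 5 libraries by more than the 95% critical value of Dixon's test. It is 1 of 87 groups of libraries examined, of which chance would pick out about 1 in 20.

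For 6 members the change under iMAE-126 differed from the average change under the other 2 guides by a test of the difference itself (edgeR, adjusted over all genes tested). The log2 difference was 1.31 for TP53INP1 (adjusted p = 0.00579), which lay above both SC libraries of its set in the 2 iMAE-126 libraries and below every SC library in the 8 others. It was 1.29 for GDF15 (adjusted p = 0.0130). It was −0.69 for PMAIP1, −0.62 for FAS, −0.45 for PLK2 and −0.41 for GADD45A (adjusted p between 0.00391 and 0.0259). The guides lie in different library sets, so a difference between sets in how cells respond cannot be told apart from the guide.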

How the results depend on the processing

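There were 1594 alternative values for 111 results, each of 1 member in 1 comparison. Of these values, 1465 kept direction and side of the threshold and 108 lost the call (81 of them with 1 library left out). A further 19 gained it and 2 reversed. Both reversals arose without the set term: RRM2B in iMAE-126 against SC (0.27) and CDKN1A in iMAE-126 against the average of the other 2 guides (1.32, adjusted p = 0.00817). The cause was not tested. Without that term 16 members were called in that comparison. In this section the share of all genes called under each alternative setting is not given, except for SC of each set, given above. A changed count of members is therefore not a result particular to them. The same holds for the counts given above with a library left out.

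Leaving out each library gave 0 to 1 members called with iMAE-1.1 and with iMAE-1.2, 2 to 6 with iMAE-126, 0 to 0 in iMAE-1.2 against iMAE-1.1, 4 to 7 in iMAE-126 against the average of both, 8 to 9 in 786-M1A against 786-O, 18 to 26 in OS-LM1 against 786-M1A, 22 to 28 in OS-LM1 against 786-O and 3 to 14 in SC against 786-M1A. A lone library left in a group is assumed to vary like the others.

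With SC libraries of the same set alone, 2 members were called with iMAE-1.1 and 11 with iMAE-126. With near-alike SC libraries summed (replicates 4 and 6, and 3 and 5), 0 were called with iMAE-1.1 and iMAE-1.2. Guide replicates 1 and 2 alone gave 2 with iMAE-1.1 and 3 with iMAE-1.2, and replicates 3 and 4 gave 0 and 5, alternatives added after seeing the data. The compared groups alone gave 11 with iMAE-126 and 23 in 786-M1A against 786-O. SC of set A alone gave 15 and of set B 21 against 786-M1A. For iMAE-126 against the average, the compared groups alone were not run, since set and guide coincide there.

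Replicate numbers did not pair the libraries: for iMAE-1.1 with iMAE-1.2, libraries of the same number correlated at −0.65 to −0.29 over genes. With the replicate number as a block, 0 members were called with iMAE-1.1, 0 with iMAE-1.2, 3 with iMAE-126, 1 in iMAE-126 against the average and 15 in SC against 786-M1A. Crossed pairings gave 0 in iMAE-1.2 against iMAE-1.1 and 22 in OS-LM1 against 786-M1A.

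On the TPM scale the median of all genes moved to −0.16 in OS-LM1 against 786-M1A, −0.23 in OS-LM1 against 786-O and −0.23 in SC against 786-M1A. TNFRSF10C and SPATA18 fell under the count filter in the fits of the guides.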
